A study of Rattus norvegicus with 9 samples.

Results

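The transcript levels of 10 genes of the endoplasmic reticulum (ER) stress response and the integrated stress response were measured by mRNA sequencing in 9 rat colon carcinoma libraries. The genes were Hspa5, Xbp1, Herpud1, Atf4, Atf3, Ddit3, Trib3, Asns, Chac1 and Sesn2. They were taken by symbol from the 34322 genes of the count table, which holds all 10, and all 10 were among the 13331 genes tested. The ex vivo tumors (numbered 1 to 3) were CC-531 lesions from the peritoneum of WAG/Rij rats, which were 8 to 10 weeks old when the cells were injected. The organoids (passages 7, 8 and 9, written p7, p8 and p9) were CC-531 cells grown in matrigel, a basement membrane gel, and the cells (p5, p8 and p11) were the same line in RPMI1640 medium with fetal bovine serum. All 9 libraries thus descend from 1 carcinoma line of WAG/Rij origin, no library is labelled as treated with a drug or with heat, and no animal or passage is given for the tumors. An ex vivo tumor also holds cells of its host. The 3 libraries of a sample type are stated to be of different passages, but not of independent cultures or animals, so the spread that each p-value is set against may be technical.

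Proteins that enter the secretory pathway fold in the ER with the help of chaperones, and unfolded protein there is sensed by IRE1, PERK and ATF6. IRE1 splices the mRNA of Xbp1, ATF6 is cut to a transcription factor in the Golgi, and PERK phosphorylates the translation factor eIF2 alpha. The same phosphorylation is made by the kinases that sense amino acid shortage, heme shortage and double-stranded RNA, and the joint outcome, called the integrated stress response, lowers protein synthesis while the mRNA of the transcription factor ATF4 is translated more. Counts per gene show neither the splicing of Xbp1 nor the phosphorylation of eIF2 alpha nor the translation of Atf4, so the values below are transcript levels. Of the 10 genes, Hspa5 encodes the ER chaperone BiP, Xbp1 the transcription factor made from the spliced mRNA and Herpud1 a membrane protein of ER-associated degradation. Atf4, Atf3 and Ddit3 (CHOP) encode transcription factors of the integrated stress response. Trib3 encodes a pseudokinase, Asns asparagine synthetase, Chac1 an enzyme that degrades glutathione and Sesn2 a leucine-binding inhibitor of mTORC1 signaling, and all 4 are known as ATF4 targets.

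The promoters of these genes are known to carry response elements of the pathways, and those with a match to a searched element are shown to set the elements of the ER arm beside those of the ATF4 arm. Sequences are from the RefSeq annotation of GRCr8, which is not the build of the counts, and were matched by symbol for 9 of the 10 genes, each running from 250 bases before to 50 bases after the start of the gene. The ER stress response element (ERSE) was searched as CCAAT and CCACG with 9 bases between, ERSE-II as ATTGG and CCACG with 1 base between, the C/EBP-ATF response element (CARE) as TGATG, any base and AA, the UPRE as TGACG followed by TGG and the CRE as TGACG followed by TCA, all on both strands and with overlaps allowed. The promoters are printed 5′ to 3′ on the strand of the gene, and capitals mark each match.
Hspa5 (chr3:38452766-38453065, plus strand): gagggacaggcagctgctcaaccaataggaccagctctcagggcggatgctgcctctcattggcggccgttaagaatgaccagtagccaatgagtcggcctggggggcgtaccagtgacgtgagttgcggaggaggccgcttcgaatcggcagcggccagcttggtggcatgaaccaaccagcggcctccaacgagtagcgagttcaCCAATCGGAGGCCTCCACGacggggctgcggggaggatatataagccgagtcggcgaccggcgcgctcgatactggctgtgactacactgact
Xbp1 (chr14:84604373-84604672, plus strand): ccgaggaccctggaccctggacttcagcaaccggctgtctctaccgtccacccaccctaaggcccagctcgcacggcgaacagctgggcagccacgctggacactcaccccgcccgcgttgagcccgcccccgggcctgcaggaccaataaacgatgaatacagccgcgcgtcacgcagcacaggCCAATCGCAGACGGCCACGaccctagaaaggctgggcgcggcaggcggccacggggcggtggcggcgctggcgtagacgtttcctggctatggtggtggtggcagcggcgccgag
Herpud1 (chr19:10614658-10614957, minus strand): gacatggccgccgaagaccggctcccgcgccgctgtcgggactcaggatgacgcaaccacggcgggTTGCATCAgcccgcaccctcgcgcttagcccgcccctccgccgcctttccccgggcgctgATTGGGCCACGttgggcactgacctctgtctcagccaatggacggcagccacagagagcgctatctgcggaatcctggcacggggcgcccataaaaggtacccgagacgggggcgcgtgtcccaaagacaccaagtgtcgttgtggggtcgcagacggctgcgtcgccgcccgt
Trib3 (chr3:161275484-161275783, minus strand): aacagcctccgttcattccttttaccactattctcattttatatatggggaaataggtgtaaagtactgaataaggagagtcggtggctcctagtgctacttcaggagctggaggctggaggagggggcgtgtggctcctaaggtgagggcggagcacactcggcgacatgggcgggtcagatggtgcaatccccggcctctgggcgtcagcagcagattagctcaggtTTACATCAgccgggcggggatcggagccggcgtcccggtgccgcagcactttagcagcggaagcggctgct
Chac1 (chr3:126795881-126796180, plus strand): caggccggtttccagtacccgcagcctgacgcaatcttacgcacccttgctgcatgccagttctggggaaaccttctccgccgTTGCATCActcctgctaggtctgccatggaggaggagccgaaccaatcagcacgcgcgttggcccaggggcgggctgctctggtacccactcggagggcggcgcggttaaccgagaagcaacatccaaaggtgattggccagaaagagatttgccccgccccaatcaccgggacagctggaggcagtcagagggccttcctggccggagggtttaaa

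Hspa5 and Xbp1 each hold an ERSE, at positions -43 to -25 and -65 to -47 from the start. Herpud1 holds an ERSE-II at -124 to -114 and a CARE at -184 to -177, so that it carries an element of each arm. Trib3 holds a CARE at -21 to -14 and Chac1 holds a CARE at -167 to -160, each on the strand opposite to the gene. Among all 33469 promoters of this length, 0.0657% hold an ERSE, 0.0508% an ERSE-II and 3.98% a CARE, while 0.595% hold a UPRE and 1.83% a CRE. No searched element was found in the windows of Atf4, Ddit3, Asns and Sesn2. A match is a match of letters only.

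Total counts were 12601774 to 18438055 in ex vivo tumors, 15968793 to 20444595 in organoids and 16983060 to 24335921 in cells, so the depths of the sample types overlap. No library repeated the counts of another, since even the closest pair (organoids p8 and p9) had a chi-square of 4.58 per gene. Organoids p7 stood apart from p8 and p9, with a Pearson's r of log2 values across the tested genes of 0.929 and 0.932, against 0.994 between p8 and p9 and 0.913 to 0.926 between p7 and the cell libraries (0.906 to 0.932 for p8 and p9 with the cells). Genes are not independent replicates. The labels give no reason for this difference, and whether the library labelled organoids p7 is labelled rightly was not tested. The calls of the 10 genes and the counts of the lists that involve the organoids are therefore also given without it. The organoids are then p8 and p9 alone, so the spread within organoids is that of this close pair. Ex vivo 1 was the least alike of the tumors, with an r of 0.945 and 0.953 with the others, against 0.981 between ex vivo 2 and 3. Summed over 8 epithelial genes (Epcam, keratins, Cdx2, Vil1 and others), the level was 4803 to 7132 CPM (counts scaled by TMM to a common library size) in ex vivo tumors, 4137 to 5768 CPM in organoids and 3627 to 4105 CPM in cells, with none of the 8 at 0 in any sample type. Summed over 12 macrophage genes it was 3582 to 4210 CPM in ex vivo tumors, 24.6 to 71.6 CPM in organoids and 37.4 to 57.5 CPM in cells. For 10 fibroblast genes it was 4561 to 9386 CPM in ex vivo tumors, 6.51 to 15.6 CPM in organoids and 4.12 to 6.04 CPM in cells. C1qa, C1qc, Cd163 and Tyrobp of the macrophage genes and Dcn and Lum of the fibroblast genes had no count in any organoid or cell library and were detected in the ex vivo tumors. The stress genes are expressed by host cells too, the part of these cells in any value of the tumors was not tested, and in such bulk samples fewer cells of a type and less RNA per cell cannot be told apart.

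Of the ER arm, Hspa5 was at 632, 654 and 638 CPM in ex vivo tumors 1 to 3, at 416, 1721 and 1933 CPM in organoids p7, p8 and p9 and at 986, 595 and 501 CPM in cells p5, p8 and p11. Organoids p8 and p9 were the highest of the 9 libraries and p7 the lowest, while the tumors lay within the range of the cells. Xbp1 was at 182, 152 and 142 CPM in ex vivo tumors, at 108, 154 and 159 CPM in organoids and at 89.2, 76.8 and 75.7 CPM in cells. Every tumor and every organoid library lay above every cell library, and the tumors overlapped the organoids. Herpud1 was at 73.2, 58.0 and 65.8 CPM in ex vivo tumors, at 35.0, 150.4 and 147.7 CPM in organoids and at 41.2, 31.0 and 29.3 CPM in cells. Its tumor libraries all lay above the cells, and organoids p7 lay among the cells.

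**Figure D1:**
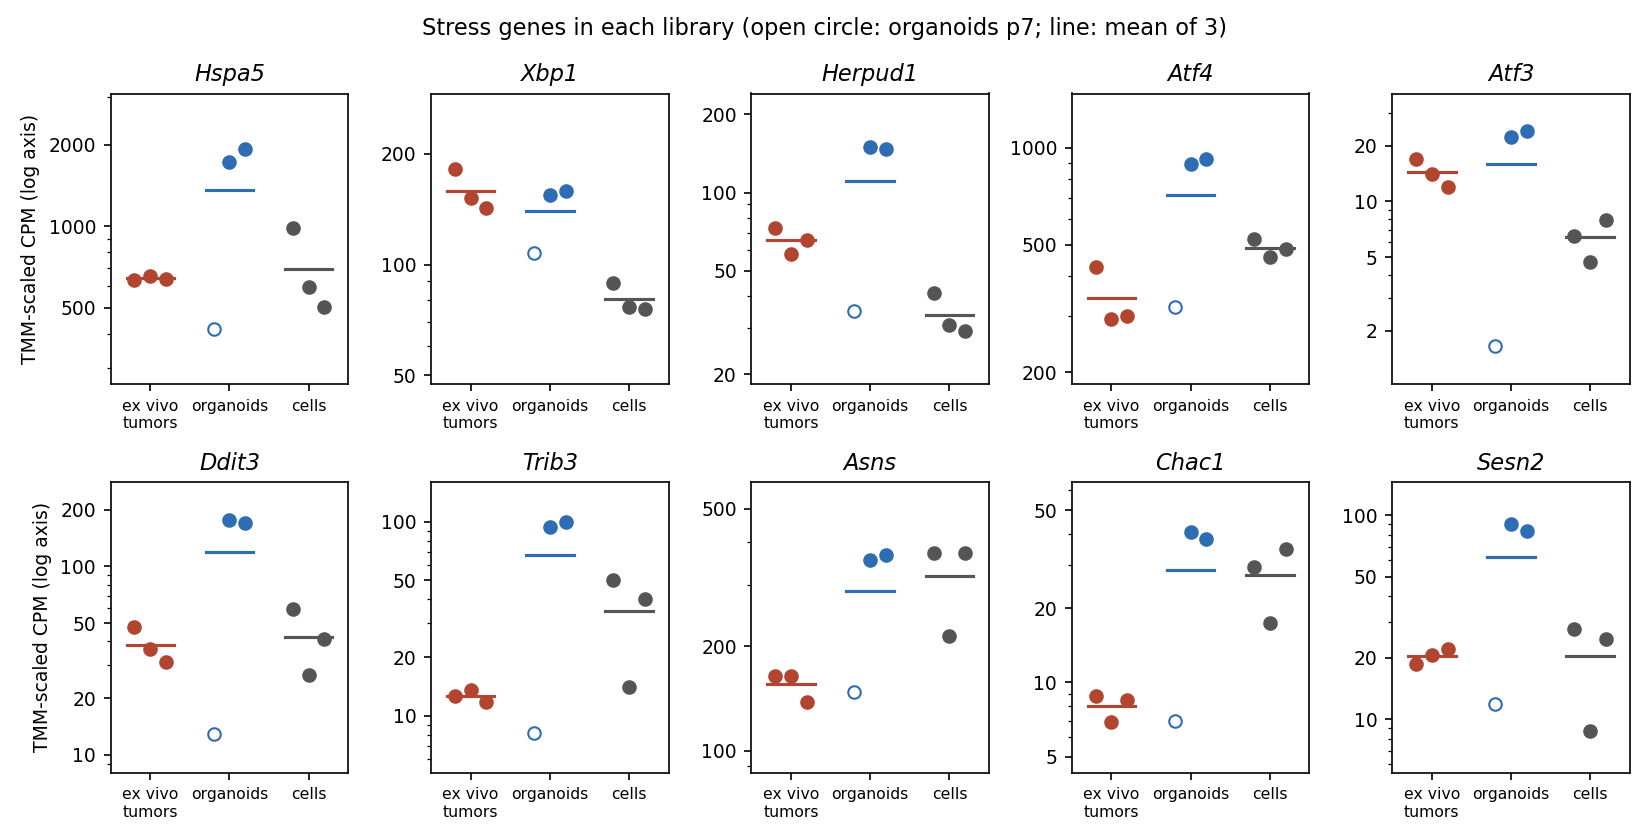
CPM (TMM-scaled, log axis, a range of its own in each panel) of the 10 stress genes in the 3 ex vivo tumors, 3 organoid and 3 cell libraries, with a line at the mean of each sample type and organoids p7 as an open circle. Organoids p8 and p9 lie close together in every panel and p7 lies below both, with Ddit3 at 12.9 CPM in p7, 175 CPM in p8 and 171 CPM in p9.

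Atf4, which encodes the factor that drives the other genes of its arm, was at 427, 294 and 299 CPM in ex vivo tumors, at 320, 891 and 923 CPM in organoids and at 521, 457 and 485 CPM in cells. All 3 tumors lay below all 3 cell libraries, and organoids p8 and p9 above them. Atf3, a partner and repressor among the ATF factors, was at 17.0, 14.1 and 11.9 CPM in ex vivo tumors, at 1.65, 22.2 and 23.9 CPM in organoids and at 6.54, 4.73 and 7.91 CPM in cells. The tumors lay above the cells, and p7 was below all other libraries. Ddit3, which encodes the factor CHOP known for its part in cell death under lasting ER stress, was at 47.6, 36.6 and 31.2 CPM in ex vivo tumors, at 12.9, 175 and 171 CPM in organoids and at 59.4, 26.7 and 41.0 CPM in cells. Tumors and cells overlapped, and organoids p8 and p9 stood above both.

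Of the targets of ATF4, Trib3, whose product binds ATF4 and CHOP and dampens their activity, was at 12.7, 13.6 and 11.7 CPM in ex vivo tumors, at 8.13, 94.1 and 100.2 CPM in organoids and at 49.95, 14.1 and 39.8 CPM in cells. The tumors lay within 2 CPM of each other, below all cell libraries, of which p8 was the lowest. Asns was at 164, 165 and 138 CPM in ex vivo tumors, at 148, 354 and 368 CPM in organoids and at 372, 214 and 373 CPM in cells. Organoids p7 lay among the tumors, and organoids p8 and p9 lay just below cells p5 and p11. Chac1 was at 8.81, 6.88 and 8.48 CPM in ex vivo tumors, at 6.97, 40.6 and 38.2 CPM in organoids and at 29.3, 17.4 and 34.9 CPM in cells. Here too organoids p7 lay among the tumors, and all cell libraries lay above both. Sesn2 was at 18.6, 20.5 and 22.1 CPM in ex vivo tumors, at 11.9, 90.9 and 83.5 CPM in organoids and at 27.6, 8.73 and 24.6 CPM in cells. The tumors lay within the range of the cells, which was set by cells p8 at its low end.

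Within the organoids all 10 genes were lower in p7 than in p8 and in p9, and 9 of them by over 2-fold of the mean of the other 2, against 11.7% of all genes tested. The difference (log2 CPM of p7 minus the mean of p8 and p9) was -3.74 for Ddit3, -3.72 for Atf3 and -3.56 for Trib3. It was -2.86 for Sesn2, -2.48 for Chac1, -2.13 for Hspa5, -2.09 for Herpud1, -1.50 for Atf4 and -1.29 for Asns. Xbp1 was the exception at -0.54. Between p8 and p9 no gene of the 10 differed by more than 0.17 on this scale (Hspa5). In the cells, p8 was over 2-fold below the mean of p5 and p11 for Trib3 (-1.65) and Sesn2 (-1.56), against 3.35% of all genes, and all 10 genes had a negative difference there. In the ex vivo tumors no gene of the 10 was over 2-fold apart from the mean of the other 2 libraries. These differences compare single libraries and have no test.

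**Figure D2:**
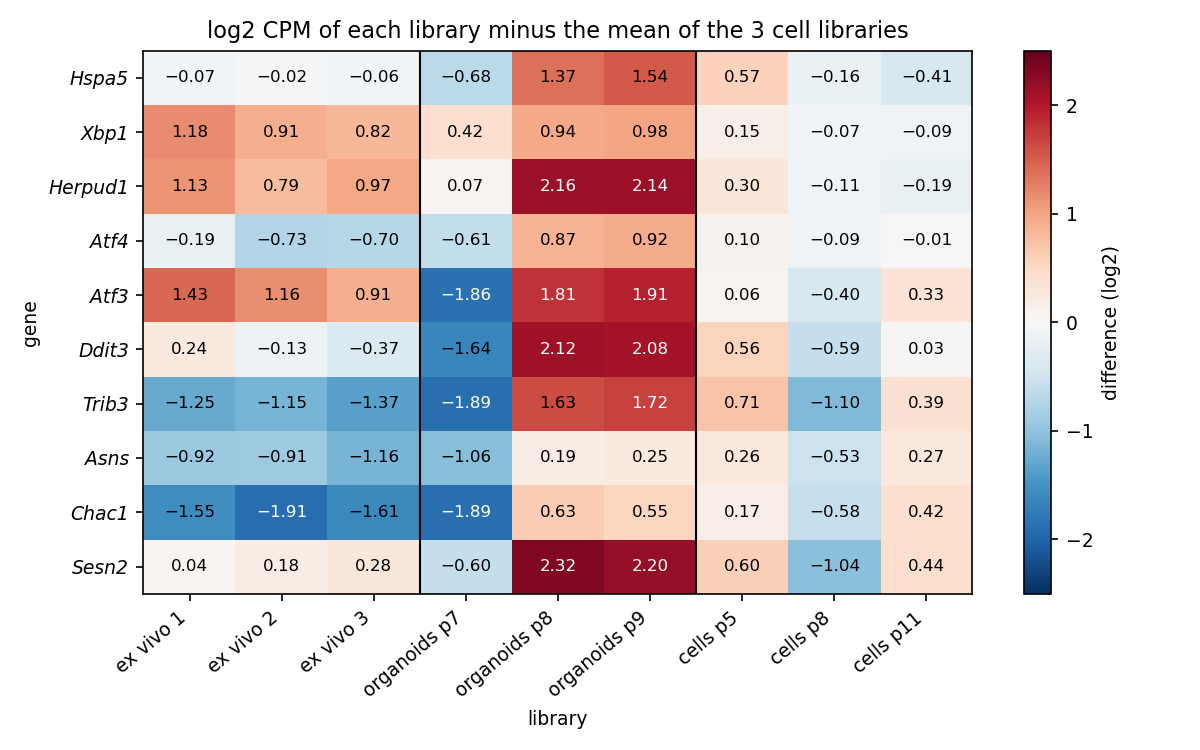
Difference of log2 CPM from the mean of the 3 cell libraries (color and printed value) for each gene (rows) in each library (columns), in the order ex vivo tumors, organoids, cells. The columns of organoids p8 and p9 are positive for all 10 genes, from 0.19 for Asns to 2.32 for Sesn2 in p8, whereas in p7 only Xbp1 (0.42) and Herpud1 (0.07) are positive.

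Between organoids and cells, 2 of the 10 genes rose and none fell, where 10.7% of all genes tested were called (6.44% higher and 4.29% lower) at an adjusted p under 0.05 from edgeR's quasi-likelihood test. Herpud1 averaged 111 ± 65.8 CPM in organoids and 33.8 ± 6.44 CPM in cells (SD, n = 3 each), with a log2 difference of 1.71 (SE 0.43, adjusted p = 0.0290 from edgeR). Xbp1 averaged 140.1 ± 28.3 CPM in organoids and 80.5 ± 7.49 CPM in cells (SD, n = 3 each), with a log2 difference of 0.80 (SE 0.21, adjusted p = 0.0328 from edgeR). Xbp1 was also the only 1 of the 10 whose libraries did not overlap, which held for 31.8% of all genes (16.2% higher and 15.5% lower). The other 8 genes did not pass, among them Sesn2 (1.61, SE 0.61, adjusted p = 0.109), Ddit3 (1.49, SE 0.68, adjusted p = 0.172) and Atf3 (1.31, SE 0.67, adjusted p = 0.227). Hspa5 had a log2 fold change of 0.97, Trib3 of 0.96, Atf4 of 0.54, Chac1 of 0.07 and Asns of -0.14. The median over the 10 genes was 0.96, with 9 positive, where the median over all genes was 0.03, and it was 1.41 with all 10 positive without organoids p7. By edgeR, 4 of the 10 were higher and 0 lower at an unadjusted p under 0.05, DESeq2 called 3 higher and 0 lower, and limma on quantile-normalized values 1 and 0. Of all 13331 genes, 3797 had such an unadjusted p in either direction. Among all genes, DESeq2 called 1352 higher and 1008 lower, and limma 547 and 517.

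Both calls were lost on leaving out organoids p8, organoids p9 or any 1 of the cell libraries (adjusted p = 0.0657 to 0.135 for Xbp1 and 0.0712 to 0.117 for Herpud1), and that of Xbp1 also without ex vivo 2 (adjusted p = 0.0523). Without organoids p8, organoids p9 or any 1 cell library, 0 of the 10 were called. Of all 13331 genes, 699 and 691 were then called without organoids p8 and p9, and 570, 527 and 1692 without cells p5, p8 and p11. With all 9 libraries 1431 were called. Without organoids p7, 8 of the 10 genes were called higher and none lower, where 25.6% of all genes were called (12.8% higher and 12.8% lower). The organoids were then p8 and p9 alone, with an r of 0.994 between them, so the spread within organoids was that of this close pair. Ddit3 then stood at 2.00 (adjusted p = 0.000939), Sesn2 at 2.07 (adjusted p = 0.00245) and Atf3 at 1.82 (adjusted p = 0.00111). Hspa5 had 1.37 (adjusted p = 0.00538), Trib3 1.46 (adjusted p = 0.0173) and Atf4 0.86 (adjusted p = 0.0159), and Herpud1 and Xbp1 were called as before. Chac1 (0.51, adjusted p = 0.190) and Asns (0.15, adjusted p = 0.700) were not called in either fit. The summed level of 8 goblet cell genes (Fcgbp, Muc2, Agr2 and others), which mark secretory cells, was 279 CPM in organoids p7. It was 212 to 224 CPM in p8 and p9, against 28.0 to 70.7 CPM in cells. Of these 8, Fcgbp had the highest mean quantile-normalized log2(count + 1) over the 9 libraries (9.74, with 6.84 for Muc2 and 5.98 for Agr2). The part of secretory cells in the values of the 10 genes was not tested.

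Between ex vivo tumors and cells, 1 of the 10 genes rose and 1 fell, where 19.2% of all genes were called (12.4% higher and 6.78% lower). Xbp1 averaged 159 ± 21.1 CPM in ex vivo tumors and 80.5 ± 7.49 CPM in cells (SD, n = 3 each), with a log2 difference of 0.98 (SE 0.21, adjusted p = 0.00657 from edgeR), and was called under every alternative and without any 1 library. Chac1 averaged 8.06 ± 1.03 CPM in ex vivo tumors and 27.2 ± 8.91 CPM in cells (SD, n = 3 each), with a log2 difference of -1.76 (SE 0.53, adjusted p = 0.0380 from edgeR). Its call was lost without ex vivo 1, 2 or 3, cells p5 or cells p11 (adjusted p = 0.0893 to 0.107). Asns stood at -1.04 (SE 0.34, adjusted p = 0.0511) and was called without cells p8 (-1.26, adjusted p = 0.0420). Of the 10 genes, 3 lay above the cells in every tumor (Xbp1, Herpud1 and Atf3) and 4 below (Atf4, Trib3, Asns and Chac1), where the libraries of 41% of all genes did not overlap (22.2% higher and 18.8% lower). Herpud1 (0.96, adjusted p = 0.141), Atf3 (1.17, adjusted p = 0.250), Trib3 (-1.45, adjusted p = 0.175) and Atf4 (-0.52, adjusted p = 0.322) did not pass. Hspa5 (-0.11), Ddit3 (-0.14) and Sesn2 (0.01) had log2 fold changes below their standard errors of 0.46, 0.66 and 0.60. The signs of Hspa5 and Ddit3 turned without cells p5, and that of Sesn2 turned with the scaling. The median over the 10 genes was -0.13, where that over all genes was 0.00, and it was 0.20 without cells p5.

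The fit of all 9 libraries shares 1 estimate of the spread, and organoids p7 enters it in this comparison too. Without p7, 6 of the 10 genes were called, where 27.2% of all genes were (15.9% higher and 11.3% lower). The genes that rose were Xbp1 (0.97, adjusted p = 0.00162), Herpud1 (0.94, adjusted p = 0.00299) and Atf3 (1.16, adjusted p = 0.00586), and those that fell were Chac1 (-1.77, adjusted p = 4.08e-04), Asns (-1.04, adjusted p = 0.00527) and Trib3 (-1.45, adjusted p = 0.0114). The fit of the 6 tumor and cell libraries alone likewise called 6 genes. B and plasma cells, which depend on XBP1 for secretion, differed between the tumors, with a summed level of 8 marker genes of 599 CPM in ex vivo 1, 28.3 CPM in ex vivo 2 and 80.9 CPM in ex vivo 3, against 1.78 to 2.54 CPM in cells. The summed level of 8 pancreatic acinar genes, of another secretory cell type, was 169 CPM in ex vivo 1, 6.47 CPM in ex vivo 2 and 12.3 CPM in ex vivo 3, against at most 3.33 CPM in cells. Xbp1 was highest in ex vivo 1 among the tumors, as were Herpud1, Atf4, Atf3, Ddit3 and Chac1. Without ex vivo 1, Xbp1 had a log2 fold change of 0.86 against cells (adjusted p = 0.0188 from edgeR). The part of these cell types in its level was not tested.

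Between ex vivo tumors and organoids, 3 of the 10 genes fell and none rose, where 22.7% of all genes were called (12.2% higher and 10.5% lower). Trib3 averaged 12.7 ± 0.932 CPM in ex vivo tumors and 67.5 ± 51.5 CPM in organoids (SD, n = 3 each), with a log2 difference of -2.41 (SE 0.72, adjusted p = 0.0337 from edgeR). Chac1 averaged 8.06 ± 1.03 CPM in ex vivo tumors and 28.6 ± 18.8 CPM in organoids (SD, n = 3 each), with a log2 difference of -1.83 (SE 0.53, adjusted p = 0.0291 from edgeR). Atf4 averaged 339.8 ± 75.3 CPM in ex vivo tumors and 711 ± 339 CPM in organoids (SD, n = 3 each), with a log2 difference of -1.07 (SE 0.35, adjusted p = 0.0488 from edgeR). Ddit3 (-1.64, adjusted p = 0.102), Sesn2 (-1.60, adjusted p = 0.0786), Hspa5 (-1.08, adjusted p = 0.112), Asns (-0.90, adjusted p = 0.0744) and Herpud1 (-0.76, adjusted p = 0.212) did not pass. Atf3 had a log2 fold change of -0.15 and Xbp1 of 0.18. For none of the 10 genes did the libraries separate, where those of 41.2% of all genes did (21.5% higher and 19.7% lower). The median over the 10 genes was -1.07, with 1 positive, where that over all genes was 0.03, and it was -1.44 without organoids p7. At an unadjusted p under 0.05, 7 were lower and 0 higher, DESeq2 called 6 lower and 0 higher, and limma on quantile-normalized values 2 and 0. Of all 13331 genes, 5039 had such an unadjusted p in either direction. DESeq2 called 1929 of them lower and 1928 higher, and limma 3065 and 1470.

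On leaving out each library in turn, the log2 fold changes stayed within -2.91 to -2.01 for Trib3, -2.27 to -1.48 for Chac1 and -1.39 to -0.83 for Atf4, while calls were lost. That of Atf4 was lost on leaving out any 1 library other than organoids p7 (adjusted p = 0.0639 to 0.180). The call of Trib3 was lost without any 1 ex vivo tumor, organoids p8, organoids p9 or cells p11 (adjusted p = 0.0508 to 0.114), and that of Chac1 without any 1 ex vivo tumor, organoids p8 or organoids p9 (adjusted p = 0.0689 to 0.101). Without any 1 ex vivo tumor, organoids p8 or organoids p9, no gene of the 10 was called. Of all 13331 genes, 2065, 2264 and 2513 were then called without ex vivo 1, 2 and 3. Without organoids p8 and p9 there were 1782 and 1702, and with all 9 libraries 3027. Without organoids p7 the organoids were the close pair p8 and p9 alone, and 36% of all genes were called (20.1% higher and 15.9% lower). Of the 10 genes, 8 then fell and none rose. Their log2 fold changes then were -2.91 for Trib3 (adjusted p = 2.19e-04), -2.27 for Chac1 (adjusted p = 1.11e-04) and -2.15 for Ddit3 (adjusted p = 2.50e-04). Sesn2 had -2.07, Hspa5 -1.49, Atf4 -1.39, Asns -1.19 and Herpud1 -1.16, with adjusted p values of 6.02e-04 to 0.00328. Xbp1 (0.04, adjusted p = 0.875) and Atf3 (-0.66, adjusted p = 0.0790) were not called in either fit.

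**Figure D3:**
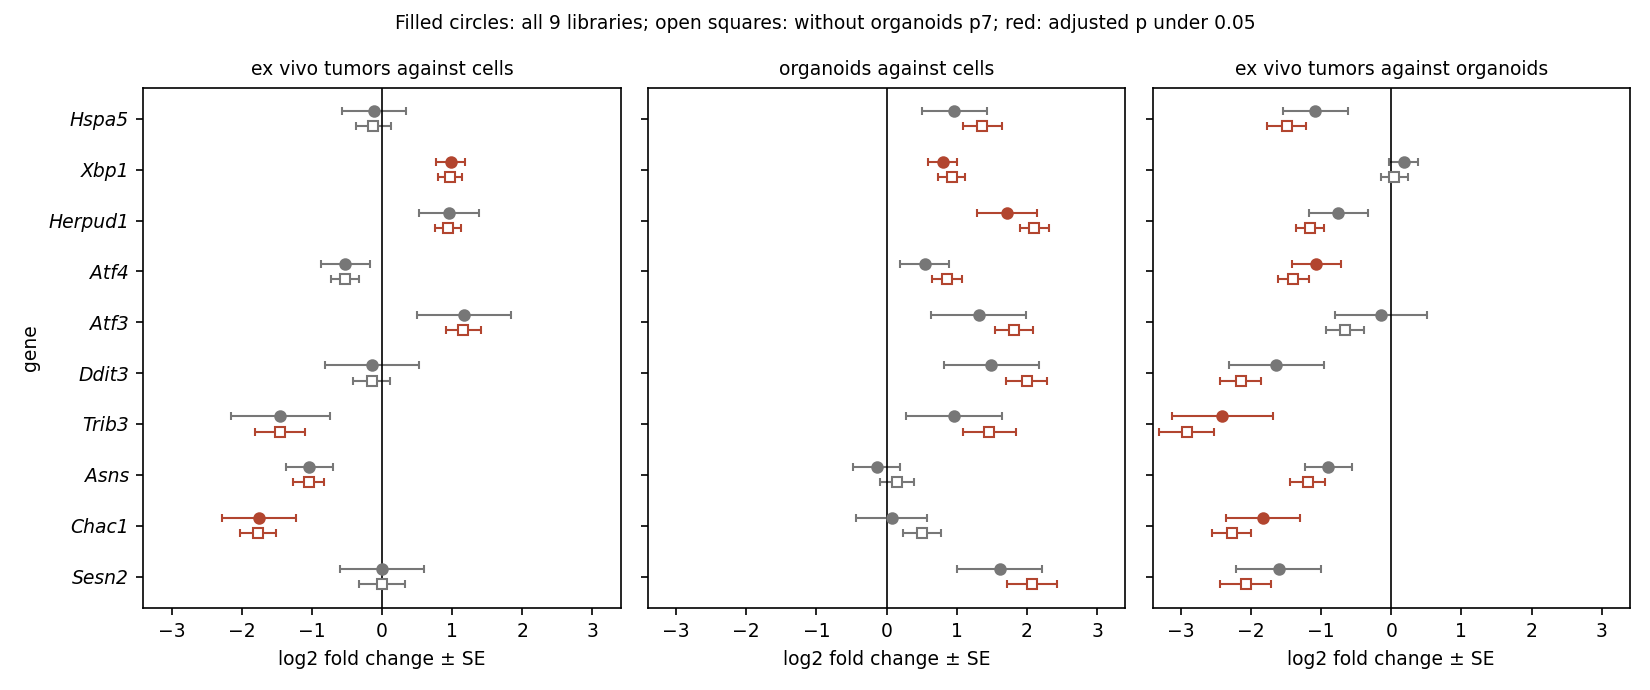
Log2 fold changes (x axis) with their standard errors (bars) of the 10 genes (y axis) in the 3 comparisons, from all 9 libraries (filled circles) and without organoids p7 (open squares), red where the adjusted p was under 0.05. The squares of Herpud1, Ddit3 and Sesn2 lie at 2.00 to 2.11 between organoids and cells, and the bars are shorter without p7 in all panels.

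In the order of mean levels, organoids came first for 8 of the 10 genes, ex vivo tumors for Xbp1 and cells for Asns, and without organoids p7 organoids came first for Asns too. Organoids p8 and p9 carried the organoid means, since p7 was below both for all 10 genes. Organoids p7 was the lowest of the 9 libraries for Hspa5 (416 CPM), Atf3 (1.65 CPM), Ddit3 (12.9 CPM) and Trib3 (8.13 CPM). Cells came last for Xbp1, Herpud1, Atf3 and Sesn2 and ex vivo tumors for the other 6 genes. Some of these means were close, as for Chac1 (28.6 CPM in organoids and 27.2 CPM in cells). Those of Sesn2 were 20.4 CPM in ex vivo tumors and 20.3 CPM in cells. The same order was not counted over all genes. For Xbp1 the neighbors ex vivo tumors and organoids did not differ by the test, and both were called above cells. For Herpud1 organoids were called above cells, though p7 lay among the cells, and ex vivo tumors (65.7 ± 7.59 CPM) differed from neither type by the test. For Chac1 organoids and cells did not differ by the test and both were called above ex vivo tumors. For Atf4 and Trib3 organoids were called above ex vivo tumors, with cells between that differed from neither by the test. For Chac1, Atf4 and Trib3 the libraries of ex vivo tumors and organoids overlapped. Hspa5, Atf3, Ddit3, Asns and Sesn2 had no pair of sample types that was called in the fit of all 9 libraries. Even so, the tumor libraries of Atf3 lay above those of the cells and the tumor libraries of Asns below, without overlap.

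The surrounding pathway was described by 7 lists, whose genes were counted by the same test. In tumors against cells, organoids against cells and tumors against organoids, 4375, 3797 and 5039 of all 13331 genes had an unadjusted p under 0.05. DESeq2 called 3276, 2360 and 3857, and limma 4108, 1064 and 4535. On leaving out each library in turn, edgeR called 1617 to 3625, 527 to 3411 and 1702 to 4801. Of the 16 sensors and regulators of eIF2 alpha, 1 rose and 1 fell in ex vivo tumors against cells, 1 rose and none fell in organoids against cells, and none rose and 1 fell in ex vivo tumors against organoids. These are shares near or below those over all genes (12.4% higher and 6.78% lower, 6.44% and 4.29%, and 12.2% and 10.5% in the 3 comparisons). Eif2ak3, which encodes PERK, was at 92.4, 121 and 165 CPM in ex vivo tumors and at 74.2, 179 and 166 CPM in organoids, against 52.4, 43.9 and 63.4 CPM in cells. It rose in tumors against cells (1.25, SE 0.33, adjusted p = 0.0216) and in organoids against cells (1.39, SE 0.33, adjusted p = 0.0234, and 1.66 without organoids p7), and both calls were lost without cells p5 or p8, the first also without ex vivo 3 and the second also without organoids p8 or p9. Mbtps2, the protease that releases ATF6 from the membrane, fell in tumors against cells (-1.04, adjusted p = 0.0242), and Ppp1r15b, a subunit of the phosphatase of eIF2 alpha, fell in tumors against organoids (-0.94, adjusted p = 0.0140). The call of Mbtps2 was lost without ex vivo 3 or cells p5 and that of Ppp1r15b without organoids p8 or p9. Without organoids p7, 1 rose and 2 fell in tumors against cells, 3 rose and 1 fell in organoids against cells, and 2 rose and 4 fell in tumors against organoids. The shares over all genes then were 15.9% higher and 11.3% lower, 12.8% and 12.8%, and 20.1% and 15.9%. Eif2s1, the gene of eIF2 alpha itself and the most counted of the list, passed in no comparison (-0.46 in tumors against cells and -0.76 in organoids against cells).

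Of 20 ER chaperones and folding enzymes other than Hspa5, 4 rose and none fell in organoids against cells, where 6.44% of all genes were called higher. Their median was 0.77 on the log2 scale, with 19 positive, and 1.05 without organoids p7. The number that rose was 14 without organoids p7 (12.8% of all genes rose), 1 without cells p8 and 2 without cells p5, organoids p8 or organoids p9. Ero1a, the oxidase that recharges protein disulfide isomerase, was at 211, 731 and 797 CPM in organoids, against 94.6, 57.7 and 79.5 CPM in cells, and rose by 2.91 (SE 0.43, adjusted p = 0.00226, and 3.28 without organoids p7). P4hb, the gene of that isomerase, was at 447, 1116 and 1146 CPM in organoids, against 341, 309 and 262 CPM in cells, and rose by 1.57 (adjusted p = 0.0126, and 0.0594 without cells p8). Without organoids p7 the rise was 1.86. Against cells, 2 of the 20 rose in ex vivo tumors, where 12.4% of all genes did. They were P4hb (1.01, adjusted p = 0.0484) and Sil1 (0.84, adjusted p = 0.0417), the nucleotide exchange factor of BiP, and leaving out any 1 tumor or cell library or organoids p8 or p9 ended both calls. Against organoids, where 10.5% of all genes fell and 12.2% rose in ex vivo tumors, 4 of the list fell and 1 rose (median -0.72). The number that fell was 15 without organoids p7 (15.9% of all genes fell) but 1 or 2 without any 1 tumor, organoids p8 or organoids p9. Among the 4 was Ero1a (-2.97, adjusted p = 5.48e-04, and -3.35 without organoids p7), and the rise was that of Sil1 (0.96, adjusted p = 0.0216), lost without ex vivo 1 or organoids p8. Hsp90b1, the ER member of the HSP90 family and the most counted of the list, passed in none of the 3 comparisons (0.74 in organoids against cells and -1.10 in tumors against organoids). In p7, 14 of the 20 genes were over 2-fold below the mean of p8 and p9.

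Of the 19 genes of ER-associated degradation and translocation, 2 rose in organoids against cells, Syvn1 (1.27, adjusted p = 0.00970, and 1.47 without organoids p7), the ubiquitin ligase HRD1, and Edem1 (1.15, adjusted p = 0.0356, and 1.43 without p7), a lectin that passes misfolded glycoproteins on. Over all genes, 6.44% were called higher there. The median was 0.61 (0.82 without organoids p7) and all 19 genes were positive. Without organoids p7, 11 were called higher, where 12.8% of all genes were. Without cells p5 or p8 no gene of the list was called there, and 1 was without ex vivo 2, organoids p8, organoids p9 or cells p11, the call of Edem1 being lost each time. Against organoids, where 10.5% of all genes fell and 12.2% rose in ex vivo tumors, 4 of the list fell and none rose (median -0.61). Among them were Edem3 (-1.21, adjusted p = 0.00784, and -1.38 without organoids p7) and Ssr1 (-0.98, adjusted p = 0.0229, and -1.21 without p7), a subunit of the translocon-associated complex. The number that fell was 11 without organoids p7 (15.9% of all genes fell) but 1 without ex vivo 1, ex vivo 2, organoids p8 or organoids p9. Against cells, 0 of the 19 were called in ex vivo tumors by edgeR, 3 were higher and 0 lower at an unadjusted p under 0.05, and DESeq2 and limma called 1 higher each. Without organoids p7, 2 rose and 1 fell in that comparison, where 15.9% of all genes rose and 11.3% fell.

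The targets of ATF4 in amino acid metabolism were divided by function. Of 12 aminoacyl-tRNA synthetase genes (with the tRNA exporter Xpot), 5 fell and none rose in ex vivo tumors against cells, where 6.78% of all genes were called lower. The median log2 fold change was -0.76 and none was positive. For 10 of the 12 all tumors lay below all cell libraries, as did 18.8% of all genes. Iars1, which loads isoleucine, was at 102, 143 and 189 CPM in ex vivo tumors and at 237, 408 and 432 CPM in organoids, against 395, 361 and 319 CPM in cells, and fell by 1.31 on the log2 scale in tumors against cells (adjusted p = 0.00778). Eprs, the gene of the glutamyl-prolyl enzyme and the most counted of the list, had -1.03 (adjusted p = 0.0216) there, a call lost without any 1 tumor, cells p5 or cells p11. Against organoids, 4 of the 12 fell in ex vivo tumors and none rose, where 10.5% of all genes fell and 12.2% rose. In organoids against cells 0 were called, 0 passed at an unadjusted p under 0.05 and DESeq2 and limma called 0. Without organoids p7, 8 fell in tumors against cells and 1 rose in organoids against cells, where 11.3% of all genes fell and 12.8% rose. The falls in tumors against cells numbered 1 without any 1 tumor or cells p5, 2 without cells p11 and 3 without cells p8. Those in tumors against organoids numbered 1 without any 1 tumor, organoids p8 or organoids p9 and 8 without organoids p7 (15.9% of all genes fell).

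Of 13 genes of amino acid synthesis and one-carbon metabolism, 12 were tested. Aldh1l2, a mitochondrial folate enzyme, was at 8.51, 5.74 and 9.02 CPM in ex vivo tumors and at 0.339, 0.898 and 0.266 CPM in organoids, against 0.217, 0.278 and 0.169 CPM in cells. It passed the filter on low values only through the tumors, so its level is a description and its test is not used. Of the other 11 genes, 2 rose and 2 fell in ex vivo tumors against cells, where 12.4% and 6.78% of all genes did. Pycr1, of proline synthesis, rose by 1.09 (adjusted p = 0.0273), Psat1, of serine synthesis, had -0.94 (adjusted p = 0.00579) and Aldh18a1, the enzyme of proline synthesis upstream of Pycr1, had -0.87 (adjusted p = 0.0209). Cth, of cysteine synthesis, had 1.14 (adjusted p = 0.0365) and -0.34 after quantile normalization. Both rises were lost without ex vivo 2, ex vivo 3 or any 1 cell library (that of Pycr1 also without ex vivo 1, that of Cth also without organoids p8 or p9). The falls numbered 5 without organoids p7 (11.3% of all genes fell) and 1 without ex vivo 2, cells p5 or cells p11. In organoids against cells none of the genes tested was called by edgeR (0 higher and 1 lower at an unadjusted p under 0.05) or by DESeq2 or limma. Against organoids, where 12.2% of all genes rose and 10.5% fell in ex vivo tumors, 1 of the 11 rose, Pycr1 by 1.28 (lost without organoids p8, and 1.79 without p7). The 2 that fell were Psat1 (-0.85, lost without organoids p9, and -0.95 without p7) and Mthfd1l (-0.82, lost without organoids p8 or p9, and -0.95 without p7). Without organoids p7, 5 fell there and 1 fell in organoids against cells, where 15.9% and 12.8% of all genes fell.

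Among the 8 genes tested of 10 amino acid transporter genes, none was called in ex vivo tumors against cells (0 higher and 2 lower at an unadjusted p under 0.05, 0 and 1 by DESeq2, 0 and 2 by limma) or in organoids against cells (4 higher and 0 lower, 2 and 0 by DESeq2, 0 and 0 by limma), while without organoids p7, 2 fell in ex vivo tumors and 5 rose in organoids, and without cells p11, 1 rose in organoids. Over all genes, 11.3% fell in ex vivo tumors and 12.8% rose in organoids against cells without organoids p7. Slc43a1, a carrier of large neutral amino acids, did not pass the filter and was singled out after its values were seen. It was at 7.15 to 8.58 CPM in ex vivo tumors, at 0 to 0.599 CPM in organoids and at 0.0556 to 0.226 CPM in cells. These levels are a description, and no test of this gene is used. Against organoids, 3 fell in ex vivo tumors, and 4 without organoids p7, where 10.5% and 15.9% of all genes fell. Slc7a11, the cystine importer, was at 6.53, 7.40 and 9.49 CPM in ex vivo tumors and at 14.3, 213 and 224 CPM in organoids, with a log2 difference of -4.27 (SE 0.83, adjusted p = 0.00393, and -4.79 without organoids p7), and at 49.7, 14.8 and 47.3 CPM in cells. Slc1a4, a carrier of alanine and serine, was at 11.9, 20.3 and 29.2 CPM in ex vivo tumors and at 43.3, 154 and 165 CPM in organoids, or a log2 difference of -2.56 (adjusted p = 0.00227, and -2.94 without organoids p7).

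Of the 18 genes tested of 22 other effectors and transcription factors, 4 rose and 1 fell in ex vivo tumors against cells, 6 rose and none fell in organoids against cells, and 1 rose and 3 fell in ex vivo tumors against organoids. Over all genes, 12.4% were called higher and 6.78% lower, 6.44% and 4.29%, and 12.2% and 10.5% in these comparisons. Without organoids p7, 9 rose and 1 fell in organoids against cells, where 12.8% of all genes rose and 12.8% fell. The rises in tumors against cells numbered 2 without cells p5 or p8. Those in tumors against organoids numbered 2 without ex vivo 1 and 0 without ex vivo 2, ex vivo 3, organoids p8 or organoids p9. The falls there numbered 7 without organoids p7 (15.9% of all genes fell) and 1 without ex vivo 3, organoids p8 or organoids p9. Txnip, which encodes a binding partner of thioredoxin, was at 216, 125 and 192 CPM in ex vivo tumors and at 195, 86.2 and 90.0 CPM in organoids, against 0.520, 2.73 and 4.18 CPM in cells. It rose by 6.19 in tumors against cells (adjusted p = 4.54e-05) and by 5.67 in organoids against cells (adjusted p = 6.00e-04, and 5.15 without organoids p7), and unlike the 10 genes above it was higher in organoids p7 than in p8 and p9. Vldlr, a lipoprotein receptor, rose by 2.81 in organoids against cells (adjusted p = 7.19e-04, and 2.87 without organoids p7), with 212, 257 and 259 CPM in organoids against 39.6, 21.0 and 43.4 CPM in cells. Creb3l1, an ER-bound transcription factor of collagen-secreting cells, rose by 2.28 in tumors against cells (adjusted p = 0.0210), with 20.4, 47.5 and 32.7 CPM in ex vivo tumors, where the fibroblast genes stood as given above, against 3.94, 5.23 and 11.6 CPM in cells. That call was lost without ex vivo 2, cells p5 or cells p8, and the part of the fibroblasts was not tested. Vegfa, the angiogenic factor and the most counted of the list, rose in organoids against cells (1.81, adjusted p = 0.0409, and 2.21 without organoids p7), with 377, 1713 and 1579 CPM in organoids against 321, 219 and 506 CPM in cells, where p7 lay among the cells. Vegfa was not called without any 1 tumor, organoids p8, organoids p9, cells p5 or cells p8 (adjusted p = 0.0524 to 0.161).

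**Figure D4:**
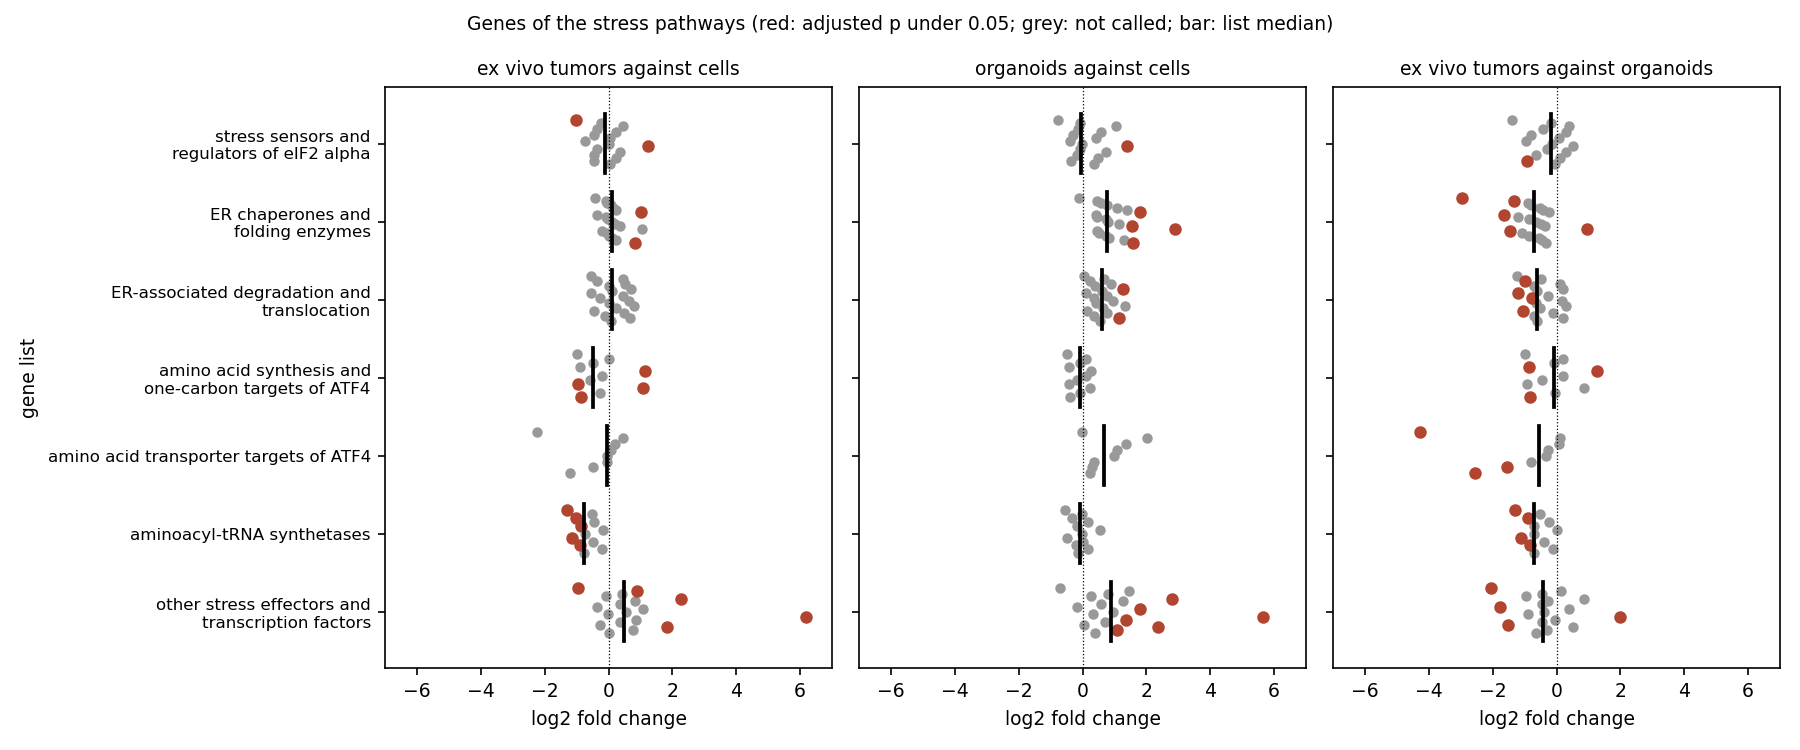
Log2 fold changes (x axis) of the tested genes of 7 lists of the stress pathways (y axis, Aldh1l2 left out, points spread vertically for legibility) in the 3 comparisons, red where the adjusted p was under 0.05, with a bar at the median of each list. The medians of the chaperones and of degradation and translocation are 0.77 and 0.61 in organoids against cells and -0.72 and -0.61 in ex vivo tumors against organoids, and that of the tRNA synthetases is -0.76 in ex vivo tumors against cells.

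In organoids p7 the number of genes over 2-fold below the mean of p8 and p9 was 5 of 8 transporters, 5 of 12 tRNA synthetases and 6 of 19 genes of degradation and translocation. It was 8 of 18 other effectors, 3 of 16 sensors and regulators and 2 of 12 genes of amino acid synthesis, against 11.7% of all genes. The sensors and regulators were thus less set apart in p7 (median difference -0.10 on the log2 scale) than the chaperones (-1.44) and the 10 genes above (-2.30), with no test of these differences.

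In a search for alike genes, the log2 CPM of each tested gene were centered on its own mean. Symbols that start with LOC, RGD, AABR, ENSRNO, MGC, Rn or AC and a digit were left out. Of the rest, the genes most like each of the 10 over the 9 libraries were found by the root-mean-square (RMS) difference. For Hspa5 they were Serp1 (0.15) and Dnajc3 (0.18), for Xbp1 Stx5 (0.12) and Lmf1 (0.14) and for Herpud1 P4hb (0.21) and Il6st (0.25). Atf4 was closest to Nabp1 (0.13) and Ttc9 (0.14), and Asns to the tRNA synthetase gene Eprs (0.17) and the folate enzyme gene Mthfd2 (0.20). For the other 5 they were Isg20 (0.39) and Upp1 (0.44) for Atf3, Arhgap22 (0.39) and Hmox1 (0.40) for Ddit3, Ipcef1 (0.35) and Flg (0.36) for Trib3, Fosl1 (0.31) and Dusp8 (0.32) for Chac1 and Slc16a5 (0.30) and Sqstm1 (0.34) for Sesn2. Among the 10 genes themselves the closest pairs were Atf4 with Asns (0.34), Hspa5 with Atf4 (0.37) and Ddit3 with Sesn2 (0.42). The pairs farthest apart were Xbp1 with Trib3 (1.36) and Atf3 with Chac1 (1.25).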

How the data were processed

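RNA of CC-531 ex vivo tumors, organoids and cells was sequenced in 3 libraries each (KAPA mRNA Hyperprep kit, Illumina). The submitters' processing notes name FastQC 0.11.9, MultiQC 1.9 and cutadapt 1.18 for quality control and trimming, STAR 2.7.4 as aligner and counter and mRatBN7.2 as genome build. The table that the authors deposited is named as normalized but holds whole-number counts per gene, used here as they are. Strand setting and gene annotation: not given in the sources used here. Overlapping or antisense neighbors and near-identical copies may share reads.

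Genes with a mean quantile-normalized log2(count + 1) of at least 4 over the 9 libraries were kept (13331). They were scaled by TMM and tested in R 4.3.3 with edgeR 4.0.16 (limma 3.58.1), with glmQLFit of 1 mean per sample type over all 9 libraries and 6 residual degrees of freedom, and with a two-sided glmQLFTest per pair. P-values were adjusted by Benjamini-Hochberg over all genes tested and called under 0.05. An SE was obtained by dividing a log2 fold change by the root of its F statistic. CPM use the TMM-scaled library sizes, and log2 CPM a prior count of 2. The 10 genes and all lists were chosen with earlier results of these data known, so no test over a list was made and medians are descriptions. Genes named besides the 10 were chosen from, per list and comparison, up to 2 rises and 2 falls with the largest change among genes called and without overlap of libraries, and the list gene of the highest mean CPM. Vimp and Gars1 matched no gene of the table. CPM are not comparable between genes, since transcript length was not used. On simulated counts of 13331 genes with 200 changed, recovery was 20% for 2-fold and 88% for 4-fold changes in the setting of tumors against cells (7 false calls), 16% and 85% in that of organoids against cells (7) and 15% and 84% in that of tumors against organoids (6). Alternatives were no filter, a stricter filter (mean of at least 6), scaling on 13 housekeeping genes, quantile normalization with limma, DESeq2 1.42.0, a fit of only the 6 libraries compared and omission of 1 library at a time. Plots used Python 3.11.15 with matplotlib 3.10.9.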

Additional observations from a re-analysis of the deposited data

How the results depend on the processing

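No paired analysis was possible because cells and organoids share only passage number 8, and the ex vivo tumors carry numbers that are no passages. Of the 10 genes, the number called in ex vivo tumors against cells (2) was 4 with no filter, 1 with the stricter filter and 6 in the fit of the 6 libraries, and 1 to 6 on leaving out each library. In organoids against cells (2) it was 4 with no filter, 0 in the fit of the 6 libraries and 1 with quantile normalization, and 0 to 8 on leaving out each library. In ex vivo tumors against organoids (3) it was 7 with no filter, 0 in the fit of the 6 libraries and 6 with DESeq2, and 0 to 8 on leaving out each library. The genes tested numbered 13331, but 27324 with no filter and 11089 with the stricter filter, so counts of calls under these filters are out of different totals. Over all genes tested, the calls in ex vivo tumors against cells (2554) numbered 5771 with no filter and 4108 with quantile normalization. They numbered 1617 to 3625 on leaving out each library. Those in organoids against cells (1431) numbered 899 in the fit of the 6 libraries, 2360 with DESeq2 and 527 to 3411 on leaving out each library. Those in ex vivo tumors against organoids (3027) numbered 6036 with no filter and 1702 to 4801 on leaving out each library. With quantile normalization 32.0% of the calls in ex vivo tumors against cells and 32.4% in ex vivo tumors against organoids were higher (64.6% and 53.9% with TMM), with housekeeping scaling 70.5% in organoids against cells (60.0%), and with no filter 66.4% in ex vivo tumors against organoids. The median log2 fold change of all genes then was -0.26 and -0.21 with quantile normalization in the same 2 comparisons, 0.16 in organoids against cells and -0.13 in ex vivo tumors against organoids with housekeeping scaling, and 0.31 and 0.27 in the comparisons of the tumors with cells and with organoids with no filter. No change of sign below was of a called value, apart from Cth, and the cause of the changes was not tested. In ex vivo tumors against cells, leaving out each library gave -0.30 to 0.23 for Hspa5 and -0.39 to 0.18 for Ddit3, positive without cells p5, and -0.35 to 0.29 for Sesn2, negative without cells p8 or ex vivo 3. Sesn2 was at -0.0219 with housekeeping scaling, -0.0817 with no filter, -0.20 with quantile normalization and -0.00862 with DESeq2. Cth was at -0.34 with quantile normalization. In organoids against cells, leaving out each library gave -0.36 to 0.15 for Asns, positive without organoids p7, and -0.27 to 0.51 for Chac1, negative without organoids p8, organoids p9 or cells p8, and Chac1 was at -0.25 with quantile normalization. In ex vivo tumors against organoids, leaving out each library gave -0.66 to 0.27 for Atf3, positive without organoids p8 or p9. With 3 libraries a sample type, most 2-fold changes were not called in the simulated data. Only 200 of 13331 genes were changed there, fewer than were called in each comparison of the data. The adjustment of p-values depends on that number, so the recovery cannot be carried over to the data.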
